A study of Mus musculus with 2 samples.

Results

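The oxygen-sensing machinery of the cell was examined here as 10 genes: the HIF alpha subunits Hif1a, Epas1 and Hif3a, the beta subunits Arnt and Arnt2, the ubiquitin ligase subunit Vhl, the prolyl hydroxylases Egln1, Egln2 and Egln3, and the asparaginyl hydroxylase Hif1an. The probes were those whose gene name on the arrays equals one of these symbols, which gave 17 of 56605 probes and 10 of 37074 gene names. RNA of mouse cells had been hybridised to 2 arrays. The case array came from cells treated with S180, and the control array from cells treated with the solvent DMSO. The labels name no cell type, genotype, dose or exposure time, and they do not say what S180 is. With 1 array per group there is no replicate, so every difference below compares 2 libraries and carries no p-value. The genes were chosen by symbol, but with the log2 differences of processed signal between these arrays in view (those of Egln3 and Egln1 above all), and their values are therefore a description.

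HIF is a transcription factor made of an oxygen-labile alpha subunit and a stable beta subunit. When oxygen is present, the EGLN enzymes hydroxylate prolines of the alpha subunit, the VHL complex recognises the hydroxylated protein, and the proteasome removes it. Hif1an hydroxylates an asparagine of the alpha subunit and so blocks its contact with the coactivators Ep300 and Crebbp. Much of this control acts on protein stability, which an RNA array does not measure. Egln1 and Egln3 are known in many cell types as genes that HIF itself induces, so that the enzymes that restrain HIF are also among its targets.

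The file headers place the arrays on 1 slide and in 1 scan. The scanner software flagged 36717 non-control spots of the S180 array and 35921 of the DMSO array as well above background, and no probe was saturated. A probe counted as measured if both arrays passed this flag, as 32680 probes did. Of the 17 probes here 15 were measured, and they covered 9 of the 10 genes. The non-control probes were dimmer on the S180 array, with a 75th percentile 0.28 (log2) below that of the DMSO array (offset -0.28), and differences are given after this percentile was subtracted from each array. The 8 spike-in transcripts, control RNAs of the labelling reaction, were instead 0.07 (log2) brighter on the S180 array, with an SD of 0.04 between them. Of the sets of cell type markers, all 7 melanocyte genes were measured, against 4 of 6 for fibroblasts, 4 of 6 for macrophages, 3 of 5 for T cells, 3 of 5 for B cells, 3 of 5 for neurons, 3 of 7 for epithelia, 1 of 6 for endothelium and 0 of 5 for hepatocytes. The melanocyte genes differed between the arrays by -0.12 to 0.26 (log2), while the 4 measured fibroblast markers (median -0.43) and the 3 measured epithelial markers (median -0.50) all lay below the median gene. In each of these 2 sets 1 marker was at least 1.5-fold lower in S180, as were 1.71% of all measured genes. The measured epithelial markers were close to background, at 13.3 to 27.6 in S180 and 22.0 to 47.2 in DMSO before scaling. Of the fibroblast markers, Col1a1 lay at -0.02 (log2). The part of cell composition in the results was not tested, and in bulk RNA fewer cells of a type cannot be told apart from less RNA per cell.

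The prolyl hydroxylase genes carry most of what follows, and their promoters are shown because Egln1 and Egln3 differed together while Egln2 did not. The sequences are RefSeq windows on build GRCm38.p6, 250 bases up to the annotated start, written 5′ to 3′ on the gene's strand. Capitals mark the core of the hypoxia response element, the DNA motif that HIF binds, searched as ACGTG or GCGTG on both strands.
Egln1 (chr8:124949255-124949504, minus strand): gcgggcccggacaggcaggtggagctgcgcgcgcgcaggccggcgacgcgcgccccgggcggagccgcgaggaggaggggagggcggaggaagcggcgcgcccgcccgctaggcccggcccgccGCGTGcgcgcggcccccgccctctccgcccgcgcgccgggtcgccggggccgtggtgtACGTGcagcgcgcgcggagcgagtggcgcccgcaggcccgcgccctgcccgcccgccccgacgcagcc
Egln3 (chr12:54203875-54204124, minus strand): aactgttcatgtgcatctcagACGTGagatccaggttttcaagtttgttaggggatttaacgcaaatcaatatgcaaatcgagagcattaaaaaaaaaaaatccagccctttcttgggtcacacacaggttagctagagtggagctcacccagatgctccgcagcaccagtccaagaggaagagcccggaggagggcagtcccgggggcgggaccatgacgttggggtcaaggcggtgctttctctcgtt
Egln2 (chr7:27166803-27167052, minus strand): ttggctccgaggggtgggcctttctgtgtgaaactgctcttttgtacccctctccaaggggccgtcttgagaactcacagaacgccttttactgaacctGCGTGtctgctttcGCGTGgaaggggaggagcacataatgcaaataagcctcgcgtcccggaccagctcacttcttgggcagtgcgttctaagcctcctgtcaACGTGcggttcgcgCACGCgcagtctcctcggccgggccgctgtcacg

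The Egln1 window held 2 matches, beginning 126 and 68 bases before the start, and the Egln3 window held 1, at 229 bases. The Egln2 window shown held 4, at 151, 137, 48 and 34 bases, and a further Egln2 window on the same chromosome held 1, at 116 bases. Of the 9 genes with a window, 6 had at least 1 match: Arnt with 1, Hif3a with 2, Hif1a with 3, and the EGLN genes. In Hif1a the matches at 135 and 134 bases overlap, being both strands of the E-box CACGTG, which other transcription factors also bind. Vhl, Arnt2 and Hif1an had no match, and Epas1 was not in the table. Among 32851 windows of all genes, 38.6% held at least 1 match and 16.7% held 2 or more. Windows with 3 or more made up 6.58%, and those with 4 or more 2.58%. The number of matches thus did not follow the differences described below, since the Egln2 window shown held the most.

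Compared with DMSO, S180 had higher signals for Egln3 and Egln1 and, by a smaller amount, for Vhl, and a lower signal for Arnt2 near the dim end of the array. The genes of the main alpha and beta subunits, Hif1a, Epas1 and Arnt, and the hydroxylase genes Egln2 and Hif1an all lay within 1.5-fold. Of the 15 measured probes 2 had at least 2-fold more signal in S180 and 0 had at least 2-fold less. The background over all measured probes was 0.63% at least 2-fold higher and 0.15% at least 2-fold lower. At 1.5-fold, 3 of the 15 were higher and 1 was lower, against 3.21% and 1.67% of all measured probes. The median difference of the 15 probes was 0.05 (log2), beside 0.00 for all measured probes (median 0.0030). The probe at that median is a Hif1a probe that reads the opposite strand, as described below. With members taken only through RefSeq transcripts, which leaves out that probe among others, the median was 0.07.

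**Figure D1:**
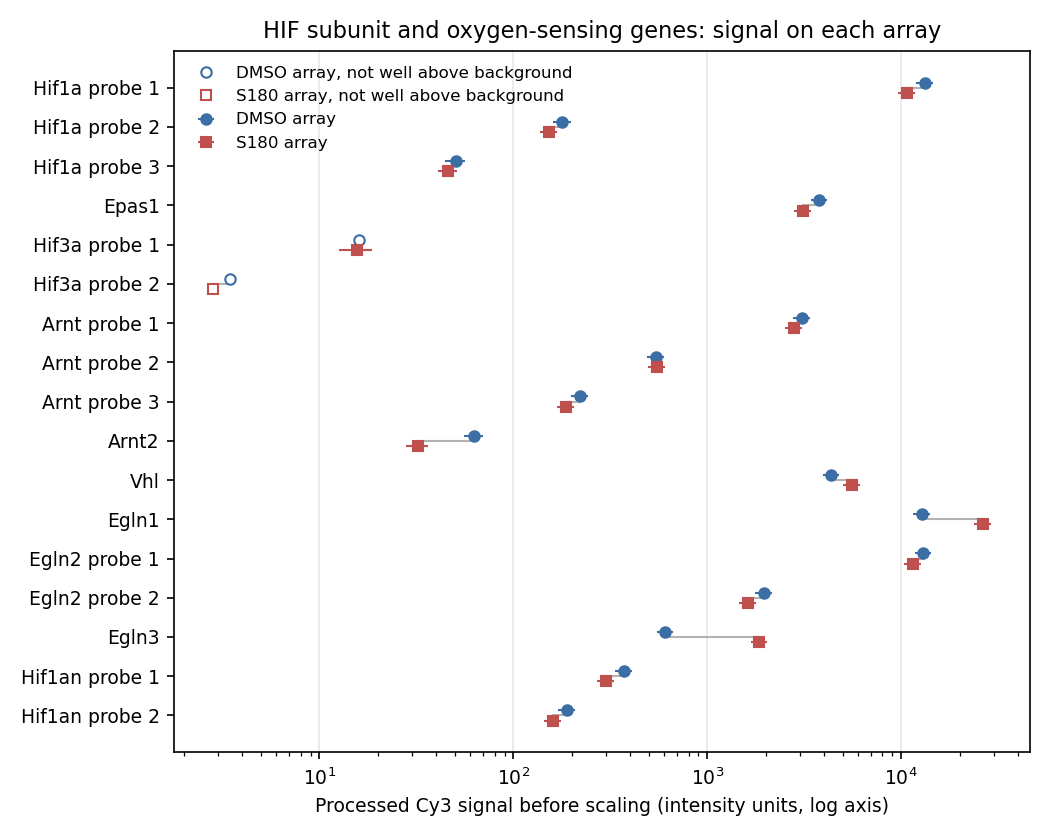
Processed Cy3 signal of each of the 17 probes on the DMSO array (circles) and the S180 array (squares), before scaling, on a log axis. Bars are the error of the scanner software's model, open symbols mark spots not well above background, and heights of different probes are not comparable. The S180 signal lies to the right of the DMSO signal for Egln1, Egln3, Vhl and 1 Arnt probe, and to the left for the other 13.

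Each probe was printed as 1 spot, and 2 errors are available for a difference. The scanner software's error model gives about 0.20 (log2) for a bright spot pair. Replicated spots of other probes gave an SD of a difference, with the measured probes split into 3 classes of equal size. The SDs were 0.035 in the brightest class, 0.076 in the middle class and 0.27 in the dim class. That of the dim class was no smaller than the model error, which was 0.25 for Arnt2 and 0.24 for the dimmest Hif1a probe. These SDs rest on 262, 5 and 10 replicated probes, so those of the middle class, which holds Egln3, and of the dim class, which holds Arnt2, are rough. Neither covers variation between cultures, RNA extracts or labelling reactions. A further spread comes from the choice of probe: across 7383 other genes with more than 1 measured probe, the pooled SD between probes of a gene was 0.20 (log2). Among probes of the brightest class, which holds Egln1 and Vhl, it was 0.099.

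Egln3 encodes the hydroxylase of the EGLN family whose mRNA is known for strong induction at low oxygen. Its signal was 608 ± 60.9 in DMSO and 1856 ± 186 in S180, where the error is that of the scanner software's model. Its probe lies on build mm9 at chr12:55280953-55281012, on the gene's strand, and begins at base 1631 of the transcript. The first 30 of its 60 bases, which identify what was measured, are as follows.
Egln3 probe: atcccagcatttattatgcactatgtttac

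After scaling, Egln3 was 3.71-fold higher in S180, a log2 difference of 1.89 with a model error of 0.20. This was the largest difference of the set, and 18 of the 32680 measured probes exceeded it. In its own brightness class 5 of 10893 probes did.

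Egln1 encodes the principal HIF prolyl hydroxylase of most tissues. Its signal was 12811 ± 1281 in DMSO and 26356 ± 2636 in S180. Its probe lies at chr8:127432510-127432569 (mm9) on the gene's strand and begins at base 3441 of the transcript. Its first 30 bases are given for the same reason.
Egln1 probe: gtggtatttcctatgaaagcctctcacgtt

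Egln1 was 2.5-fold higher in S180 (log2 1.32, model error 0.20), and 83 measured probes had a larger difference. On the scale of the 8 spike-in transcripts, control RNAs of the labelling reaction, it was 0.97 (log2) higher and so fell just short of 2-fold, whereas Egln3 remained at 1.54.

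Egln2, the third of these prolyl hydroxylases, showed no such difference on either of its probes. The brighter probe (chr7:27943678-27943737, mm9) read 13017 ± 1302 in DMSO and 11516 ± 1152 in S180. After scaling the log2 difference was 0.10. The other probe (chr7:27944020-27944079) read 1961 ± 196 and 1617 ± 162, with a difference of 0.003 (log2 0.0027). Both differences lay within the model error of 0.20. In units of the replicated-spot SD of the brightest class, which covers spot noise only, they were 2.99 and 0.08.

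The contrast within the family does not depend on the scaling factor, which cancels when the difference of Egln2 is subtracted. Egln1 exceeded Egln2, on its brighter probe, by 1.22 ± 0.29 (log2, model error), and by 1.19 to 1.23 under all of the normalizations tried. Egln3 exceeded Egln2 by 1.79 ± 0.29, with a range of 1.73 to 1.83. Egln3 also exceeded Egln1, by 0.57 ± 0.29, with a range of 0.50 to 0.62.

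Hif1an, the asparaginyl hydroxylase that limits the activity of the alpha subunits, stayed near the median probe. Its brighter probe (chr19:44650157-44650216, mm9) read 373 ± 37.5 in DMSO and 302 ± 30.3 in S180, a log2 difference of -0.03. The other probe (chr19:44637898-44637957), which lies near the transcript's 5′ end at base 319, read 189 ± 19.2 and 159 ± 16.1, a difference of 0.03. The probes at opposite ends of the transcript thus differed from each other by 0.06 (log2).

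Vhl encodes the subunit that recognises hydroxylated HIF alpha in the ubiquitin ligase. Its signal was 4366 ± 437 in DMSO and 5583 ± 558 in S180, on a probe at chr6:113581566-113581625 (mm9). After scaling it was 1.55-fold higher in S180 (log2 0.64, model error 0.20). In the brightest class of probes 148 of 10894, or 1.36%, had a larger difference. Vhl was higher in S180 under every scaling tried, but by only 0.28 (log2) on the spike-in scale and 0.35 without scaling. It exceeded Hif1a by 0.67 ± 0.29 (log2) and was exceeded by Egln1 by 0.69 ± 0.29.

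Of the alpha subunits, Hif1a is present in nearly all cells, and Epas1 is best known from endothelium and kidney. The Hif1a probe for the RefSeq transcript (chr12:75047819-75047878, mm9) read 13212 ± 1321 in DMSO and 10649 ± 1065 in S180. After scaling this was a log2 difference of -0.03, within the error of 0.20. A probe for a cDNA clone annotated as Hif1a (chr12:75033965-75034024) read 50.3 ± 6.02 and 46.1 ± 5.35, with a difference of 0.15 and an error of 0.24.

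The other Hif1a probe is shown whole because it reads the strand opposite to the gene. It was designed from a cDNA clone whose product the file calls unclassifiable, and it lies at chr12:75027538-75027597 (mm9) on the minus strand, whereas Hif1a is on the plus strand.
Hif1a opposite-strand probe: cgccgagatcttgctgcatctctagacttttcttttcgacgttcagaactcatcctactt

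It read 179 ± 18.2 in DMSO and 153 ± 15.5 in S180, a log2 difference of 0.05. Its name equals the member symbol, but by its orientation its value is not one of Hif1a mRNA. Leaving it aside, the remaining pair of Hif1a probes spanned -0.03 to 0.15.

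Epas1 read 3785 ± 378 in DMSO and 3120 ± 312 in S180 (chr17:87232615-87232674, mm9). The difference after scaling was 0.003 (log2 0.0025), so that both major alpha subunit genes lay at the median probe and differed from each other by -0.03 ± 0.29 (Hif1a minus Epas1). Hif3a, a more restricted alpha subunit with isoforms that inhibit HIF, was at the limit of detection. Its probe at chr7:17616855-17616914 read 15.7 on the S180 array, well above background there, and 16.0 on the DMSO array, not well above background. After scaling, the S180 value was 1.16-fold (log2 0.21) above the lowest DMSO signal that passed the flag. This is smaller than the model error of 0.44 for this pair of spots, and the unscaled signals go the other way. No direction is therefore given for Hif3a. The other Hif3a probe (chr7:17637281-17637340) was not well above background on either array, at 2.83 and 3.44.

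The beta subunit gene Arnt, whose product pairs with alpha subunits for DNA binding, had 3 measured probes. The brightest (chr3:95301081-95301140, mm9) read 3070 ± 307 in DMSO and 2791 ± 279 in S180, a log2 difference of 0.14. The probe at chr3:95278469-95278528, in the 5′ part of the transcript from base 641, read 544 ± 54.5 and 551 ± 55.2, a difference of 0.30. The probe at chr3:95296147-95296206 read 221 ± 22.4 and 187 ± 18.9, a difference of 0.04. The probes thus spanned 0.26 (log2), and the largest value exceeded its model error of 0.20 while the other values did not. In units of the replicated-spot SD of their class, which covers spot noise only, the differences were 4.11, 3.93 and 0.48 in the order given.

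Arnt2, a beta subunit known mainly from neurons, had 1 probe, at chr7:91395682-91395741 (mm9). Its first 30 bases are given because it is the 1 member that was lower by more than 1.5-fold.
Arnt2 probe: tgcatcataaagtgactattgtgggtagta

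It read 62.7 ± 7.08 in DMSO and 32.1 ± 4.19 in S180, both well above background but in the dim class. After scaling it was 1.61-fold higher in DMSO (log2 -0.68 for S180 minus DMSO, model error 0.25), and 248 of the 10893 dim probes, 2.28%, had a more negative difference. The value depended on the processing. The raw spot signals were 108 in DMSO and 74.1 in S180, over a local background of 31 and 30. With normexp correction of these, which here also added an offset of 50 to every spot, the difference was -0.19. A constant of this size by itself shrinks the log2 difference of a dim pair, and its share in the change was not tested. On the spike-in scale the difference was -1.04. Relative to the brightest Arnt probe Arnt2 was at -0.83 ± 0.32, with a range of -0.93 to -0.32, where -0.32 is the normexp value.

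**Figure D2:**
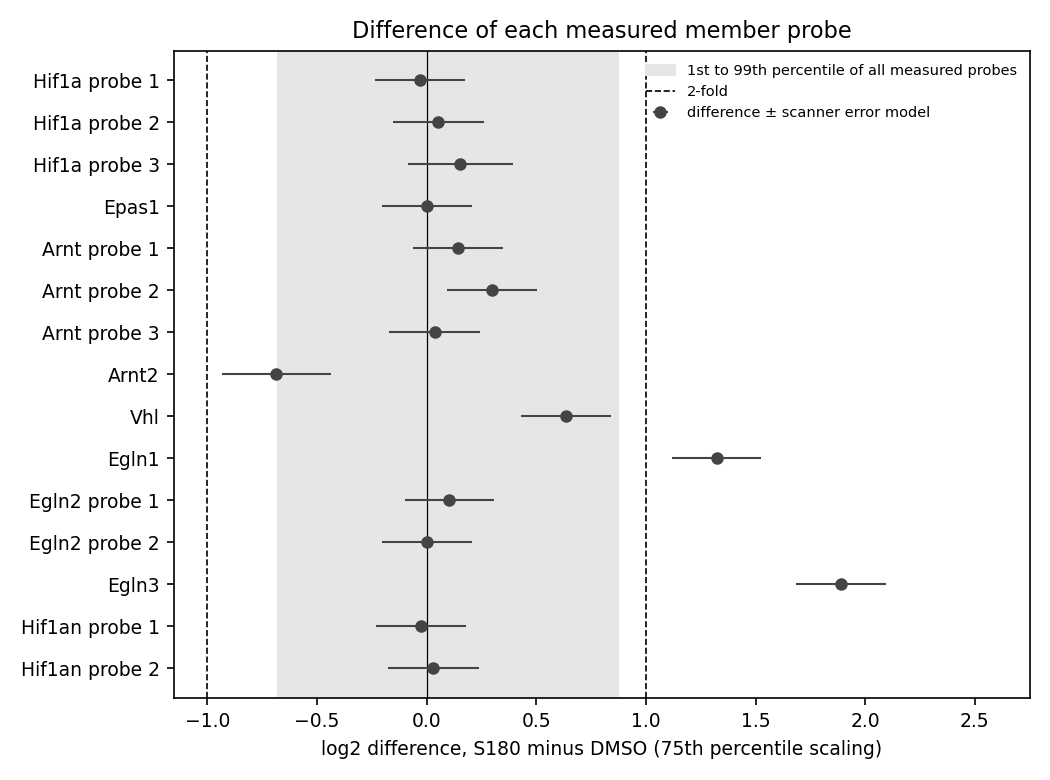
Log2 difference, S180 minus DMSO, of each of the 15 measured probes after scaling on the 75th percentile, with bars for the error of the scanner software's model. The shaded band spans the 1st to the 99th percentile of all 32680 measured probes, from -0.68 to 0.87, and dashed lines mark 2-fold; Egln1 at 1.32 and Egln3 at 1.89 lie above both, and Arnt2 lies at the lower edge of the band.

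Ordered by difference, Egln3 came first, then Egln1, Vhl, a block of 11 probes between -0.03 and 0.30, and Arnt2 last. The block includes the opposite-strand Hif1a probe. Sorting puts like values side by side, so the closeness of neighbours within the block is no result. The ends of the block were the brightest Hif1a probe at -0.03 and an Arnt probe at 0.30, each with a model error of 0.20. The 4 genes outside the block, Egln3, Egln1, Vhl and Arnt2, are among the 5 genes with 1 probe on the array, so that no other probe of the same gene is there to set beside them, Epas1 being the fifth. Of the 17 probes, 4 were brighter on the S180 array before scaling and 13 were dimmer. Relative to the 8 spike-in transcripts the median measured probe lay at -0.35 (log2), and Hif1a, Epas1, Egln2, Hif1an and Arnt then lay between -0.39 and -0.06, close to or above that median. Of the 15 measured probes 6 kept their sign under all of the 9 other scalings and corrections and 9 did not. The 6 were those of Egln3, Egln1, Vhl and Arnt2, the brightest Hif1a probe and the brighter Hif1an probe.

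**Figure D3:**
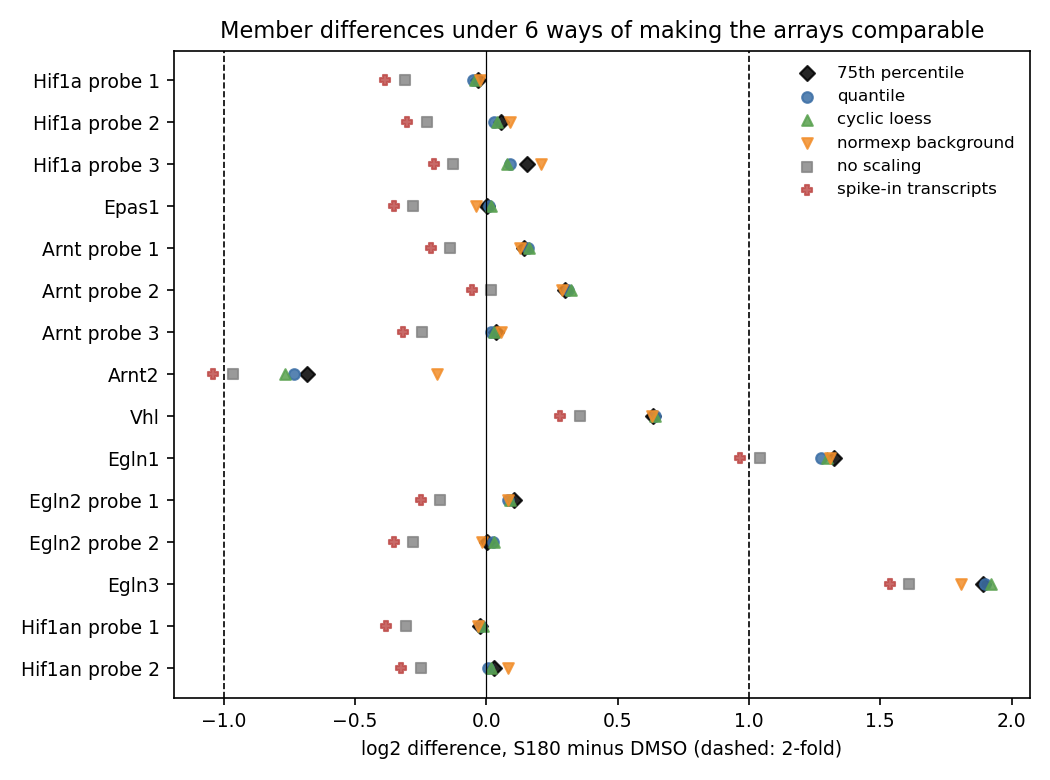
Log2 difference, S180 minus DMSO, of the 15 measured probes under 6 ways of making the arrays comparable, with dashed lines at 2-fold. Egln3 stays between 1.54 and 1.92 and Egln1 between 0.97 and 1.32, while most other probes move from near 0 to below 0 without scaling or on the spike-in scale, and Arnt2 moves from -1.04 to -0.19.

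The genes nearest to Egln3 in their difference were taken, by rule, among measured genes brighter than the median gene. They were Ddit4, an inhibitor of mTORC1, at 1.91 (log2), Bnip3, a receptor of mitophagy, at 1.93, Trib3, a stress-induced pseudokinase, at 1.82, and Maff, a small Maf transcription factor, at 1.82. Each lay within 0.08 (log2) of Egln3, the largest distance being 0.074. Likeness over 2 arrays is a match in 1 difference and no more.

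The partners of these genes were described from lists chosen with earlier results of these arrays known. Of 21 genes for the VHL ligase, HIF coactivators and regulators of HIF stability, all were measured and 0 were 2-fold apart, with a median of 0.02 (log2). Over all measured genes 0.588% were at least 2-fold higher and 0.169% at least 2-fold lower. The other subunits of the VHL ligase differed little: Elob at -0.08, Eloc at -0.05, Cul2 at -0.13 and Rbx1 at 0.06. At 1.5-fold, which 3.08% of all measured genes passed upward and 1.71% downward, 2 of the 21 were higher. These were Siah2, a ubiquitin ligase that targets EGLN proteins, at 1.87-fold higher (3921 in DMSO and 6028 in S180), and the transcription factor gene Jun at 1.77-fold higher. The coactivator gene Crebbp was at 0.35 on its brightest probe but its 3 probes ranged from -0.22 to 0.35, and the 4 probes of Ep300 from -0.18 to 0.62. The 4 probes of Pkm, a pyruvate kinase reported as a HIF coactivator, ranged from 0.39 on the brightest to 1.14. Of 14 relatives of HIF with the same bHLH-PAS fold or PAS domain 9 were measured and 0 were 2-fold apart, with a median of 0.03. Ahrr, the repressor of the aryl hydrocarbon receptor, was the member past 1.5-fold, at 1.76-fold higher in DMSO.

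Genes that HIF is known to induce were then counted on their brightest probe. Of 65 listed, 57 were measured, and 18 had at least 2-fold more signal in S180 while 1, the lipoprotein lipase inhibitor gene Angptl4 at -1.06 (log2), was at least 2-fold lower. Among all 20751 measured genes 0.588% were at least 2-fold higher and 0.169% at least 2-fold lower. The median of the list was 0.85 (log2), beside 0.00 for all measured genes (median 0.0043), and 50 of the 57 lay above the median gene. The list was chosen with such differences known, so the count describes it and does not test it.

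By role, genes of the collagen and matrix group had the highest median, 0.99 (log2), with 5 of 7 measured and 2 at least 2-fold higher. P4ha2 and P4ha1, which encode collagen prolyl hydroxylases and so relatives of the EGLN enzymes in their use of oxygen, were 2.82-fold and 1.98-fold higher, and Loxl2, a lysyl oxidase, 2.48-fold. Of 8 targets that act on transcription 3 were 2-fold higher: Ankrd37 at 2.95-fold, the Myc antagonist gene Mxi1 at 2.17-fold and the clock repressor gene Bhlhe40 at 2.1-fold. In the same group Cited2, which competes with HIF for Ep300, lay at -0.11 (log2), Bhlhe41 at -0.07 and the histone demethylase gene Kdm4c at -0.01, all named after their values were seen. The mitochondrial group had a median of 0.94, with 2 of 7 measured genes past 2-fold. Behind these Fam162a, a mitochondrial death-associated protein, was 1.93-fold higher on its brightest probe (log2 0.95), and its other probe gave 1.98 (log2). The glucose group had a median of 0.51, with 5 of 17 past 2-fold, and the vascular group 0.80, with 3 of 9. Among the remaining targets 3 of 11 were past 2-fold, the smallest of them Gys1, the muscle-type glycogen synthase, at 2.39-fold, with a median of 0.50. On the spike-in scale the number of targets at least 2-fold higher was 12, and without scaling it was 14.

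**Figure D4:**
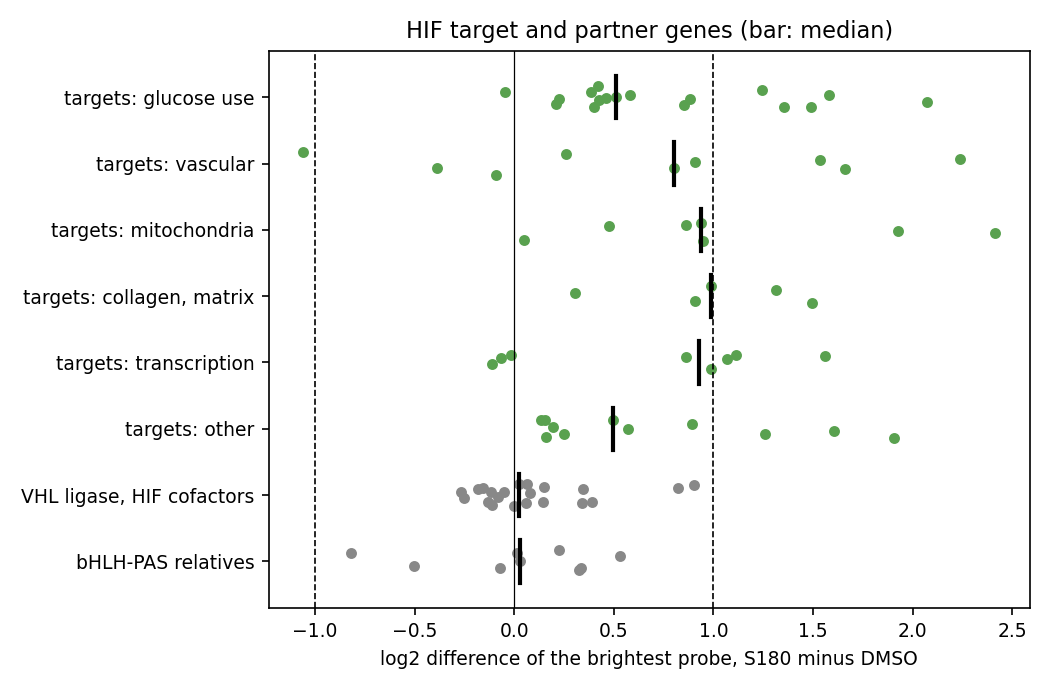
Log2 difference, S180 minus DMSO, of the brightest probe of each measured gene in the 6 role groups of HIF targets (green) and in 2 lists of partner genes (grey), with a black bar at each median and dashed lines at 2-fold. Medians of the target groups lie between 0.50 and 0.99, and those of the partner lists at 0.02 and 0.03.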

How the data were processed

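Cy3-labelled cRNA of each sample was read on its own Agilent mouse array, per the labels' protocols. Spot intensities were deposited as the output of Agilent Feature Extraction 10.7.1.1, named in the submitters' processing notes. Per the file headers, this software subtracted background and removed spatial trends but did not normalize the arrays to each other. A deposited table of log2 values served as an alternative. Its making is not described, but 99.99% of its values in either column lay within 0.1 of quantile-normalised log2 signals of the same array, so its scale and direction were settled from the data. The median of each column was 5.28.

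Control spots and spots with an outlier flag were left out, spots of a probe were averaged on the log2 scale, and each array was scaled by subtracting its 75th percentile. Differences are S180 minus DMSO. Genes of the lists were named through RefSeq accessions of GRCm38.p6 for 32989 probes, otherwise by the file's name, and represented by the probe with the highest mean. By accession alone 14 of the 17 probes would have been taken, and no further probe. Positions of probes come from the scanner tables (mm9), and their exons were not looked up. Normexp (with an offset of 50), quantile and cyclic loess normalization used limma 3.58.1 in R 4.3.3, and the counting was tested on simulated data. The members, the lists and the rule for named genes were chosen with earlier results of these data known. That rule took all members and allowed at most 3 genes of each target role, those with the largest difference, of which not all are named here, any target that went the other way by 1.5-fold, partner genes past 1.5-fold, and the 4 genes nearest to the member with the largest difference. VHL ligase subunits, Crebbp, Ep300, Pkm and 3 targets were named beyond it after their values were seen.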

Additional observations from a re-analysis of the deposited data

How the results depend on the processing

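No paired analysis was possible because each group has 1 array, and no array could be left out. Cyclic loess, quantile normalization, median scaling, the 75th percentile of measured probes, the deposited table and the outlier-flagged spots left the counts of members and of HIF targets within 1.5 times. On the spike-in scale 1 member probe was at least 2-fold higher (Egln3) and 1 lower (Arnt2), and the median of the measured member probes was -0.301; without scaling it was -0.227. All measured probes at least 2-fold higher and lower then numbered 73 and 397 with spike-ins, 94 and 262 without scaling, 106 and 11 with normexp, 648 and 211 when 1 array above background sufficed, and 2486 and 1139 with no filter, against 206 and 49. The bHLH-PAS relatives 2-fold apart were 1 with spike-ins and 1 without scaling, and HIF targets lower were 2 with no filter. At 1.5-fold there were 1 lower member probe, 1048 and 545 of all probes, 30 higher targets, 2 partner genes of the VHL ligase list and 1 bHLH-PAS relative. At 3-fold there were 1 higher member probe, 41 and 5 of all probes, and 7 higher and 0 lower targets. The fewer or more calls at other folds and filters follow from those settings, and for the scalings the cause is the shift of all probes by 1 factor. The normexp setting added an offset of 50 to every spot, which by itself shrinks the log2 differences of dim probes. How much of the normexp change comes from this offset was not tested. Signal near background limits the values of Hif3a, Arnt2 and the dimmest Hif1a probe.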
